A study of Ovis aries with 54 samples.

Results

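HOXA2, HOXA3, HOXA4, HOXA5 and HOXA7 are 5 homeobox transcription factor genes of the HOXA cluster, and their levels in sheep lung are described here across an elastase and lipopolysaccharide exposure and across the letter codes of the tissue pieces. They were chosen by symbol, with earlier results of these samples in view, as 5 of the 30184 genes in the table and 5 of its 39 genes of the HOXA, HOXB, HOXC and HOXD clusters. HOXA7 was picked because its level differed between PE/LPS and saline pieces and between the codes LC and RA, so these differences are given for it as descriptions, without a test. HOX genes encode DNA-binding proteins that set regional identity along the body axis. Genes at the 3′ end of a cluster are switched on earlier and reach further towards the head, and genes at the 5′ end act further back, an order known as collinearity. Genes of the 3′ and middle parts of HOXA and HOXB are active in the lung mesenchyme of mouse embryos, where HOXA5 is needed for normal lung growth, and some remain active in adult lung.

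RNA sequencing was done on sheep (Ovis aries) lung taken from a sheep model of COPD, a disease of airway narrowing and alveolar loss. The groups were 7 pieces given PE/LPS, that is porcine elastase, which breaks down the elastin of alveolar walls, with LPS (lipopolysaccharide) from bacterial cell walls, 7 saline-exposed pieces from other lobes of the same 7 sheep, and 4 control pieces from 4 further sheep. Every PE/LPS piece carries the code LC and every saline piece the code RA. The control pieces are 2 LC (sheep 10 and 18) and 2 RA (sheep 7 and 9). In 3 PE/LPS pieces (sheep 2, 8 and 11) and 1 control RA piece (sheep 9) the title is longer, with further characters after the code. What these stand for is not stated in the labels used here. The meaning of the codes, the breed, the age, the route of exposure and the time of sampling are not stated in the labels used here, and exposure and code cannot be told apart within the exposed sheep. Each piece was sequenced as 3 libraries, which were summed, and the piece is the unit of every comparison. Within a group every piece comes from another sheep, so its spread is between animals.

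Piece totals ran from 9653262 to 37777824 counts in PE/LPS, from 12760040 to 34762189 in saline and from 23106036 to 41946705 in control tissue. Levels are CPM, counts scaled to a common library total, with TMM scaling, which adjusts library totals for differences in composition. The lung epithelial genes SFTPC, SFTPB and NKX2-1 were detected in all 18 pieces, with lowest levels of 2779, 608 and 27.4 CPM. These are bulk tissue values, in which fewer cells of a type and less RNA per cell cannot be told apart. The PE/LPS piece of sheep 1 goes against the pattern that gave HOXA7 its place here: it is coded LC but has HOXA7 at the level of RA pieces. The labels say nothing beyond the code of where this piece was taken, and whether its code and treatment are recorded correctly was not tested, which limits every PE/LPS value that includes it. Results that rest on this piece are therefore also given without sheep 1. In sheep 11, library 1 of the PE/LPS tissue held 115109 counts, against 2777537 to 16215732 in the others. Leaving it out moved none of the 6 fitted HOXA7 differences from edgeR by more than its SE. It enters only the comparisons that use PE/LPS pieces and held 4 of the 222 HOXA7 counts of its piece, so little change was possible.

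HOXA7 lies in the middle of the cluster, and in mouse embryos genes of its paralogue group begin further back than those of the HOXA5 group. In PE/LPS pieces it was measured at 1.49 CPM in sheep 1, 23.96 in sheep 2, 12.1 in sheep 8, 12.97 in sheep 11, 10.9 in sheep 14, 11.8 in sheep 15 and 18.9 in sheep 16. In the saline pieces of the same sheep it was at 1.28, 1.196, 0.656, 0.356, 0.829, 1.62 and 0.702 CPM, in the same order of sheep. Of the control pieces, the 2 LC pieces had 8.40 CPM (sheep 10) and 11.0 CPM (sheep 18), and the 2 RA pieces had 0.528 CPM (sheep 7) and 1.69 CPM (sheep 9). Apart from sheep 1, then, all 8 LC pieces lay at or above 8.40 CPM and all 9 RA pieces at or below 1.69 CPM, whether or not the animal had been exposed. The LC piece of sheep 1, at 1.49 CPM, lay inside the RA range.

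**Figure D1:**
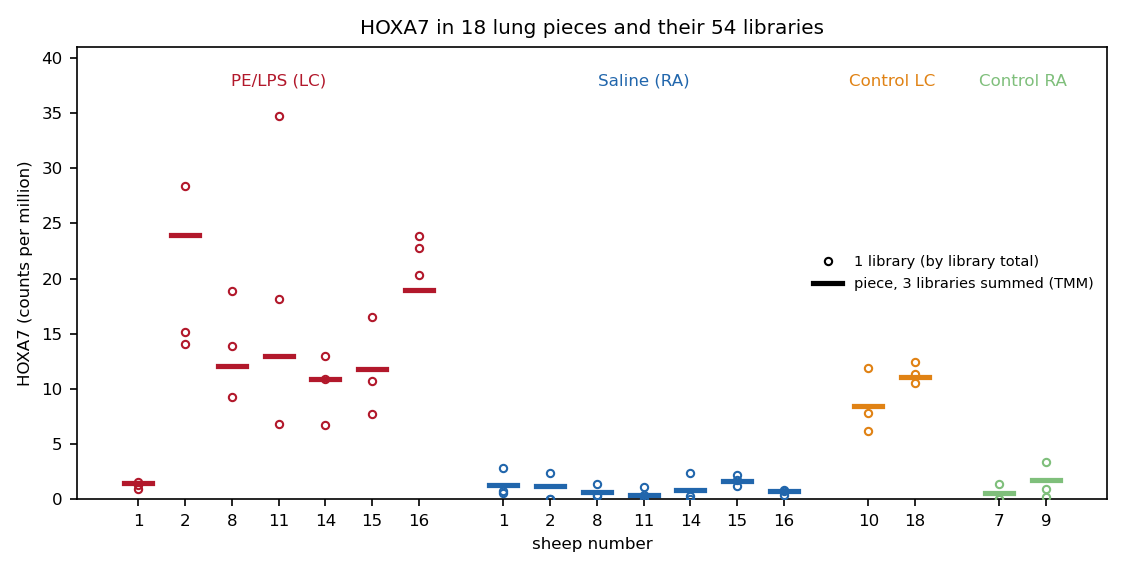
HOXA7 in CPM (vertical axis) for each sheep (horizontal axis), with PE/LPS pieces at the left, then saline pieces, control LC pieces and control RA pieces; thick bars are pieces (3 libraries summed, TMM scaling) and open circles single libraries scaled by their own totals. Outside sheep 1, LC pieces sit between 8.40 and 23.96 CPM and RA pieces between 0.356 and 1.69 CPM, and the PE/LPS piece of sheep 1 sits at 1.49 CPM.

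The split was also present in single libraries. These are the libraries summed into the piece values above, so they show how even each piece was and are no separate evidence. The 24 libraries of the LC pieces other than sheep 1 had 6.13 to 34.7 CPM of HOXA7 by their own totals, with a highest value of 28.4 CPM once the library of 115109 counts was set aside. The 3 libraries of the LC piece of sheep 1 had 0.880, 1.31 and 1.56 CPM, and the 27 libraries of RA pieces had 0.0 to 3.34 CPM. No library of an RA piece thus reached the lowest library of the 8 other LC pieces, and the 3 libraries of the LC piece of sheep 1 all lay in the RA range. Within RA pieces the counts were unevenly spread over libraries: all 24 counts of the saline piece of sheep 2 and all 16 counts of the control RA piece of sheep 7 came from 1 of their 3 libraries, and 6 of the 27 RA libraries held none. The index of dispersion among libraries of a piece, which is near 1 for counting noise, was 10.2 for HOXA7 and had a median of 9.82 over all genes. It uses only pieces with at least 50 counts of the gene, for HOXA7 the 8 LC pieces other than sheep 1 and the saline piece of sheep 15, and so says little of the RA pieces.

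A measure free of library scaling, taken from the same HOXA7 counts and so no separate evidence, gave the same split. For every 100 counts of HOXA5, HOXA7 had 11.4 to 29.4 counts in the 6 PE/LPS pieces other than sheep 1, 0.291 to 1.99 in the 7 saline pieces, 9.95 and 11.0 in the 2 control LC pieces and 0.522 and 3.20 in the 2 control RA pieces. In sheep 1 the value was 1.58 in the PE/LPS piece and 1.46 in the saline piece. Counts of different genes depend on their lengths, so this ratio is read only across pieces.

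By group, HOXA7 averaged 13.2 ± 7.00 CPM in PE/LPS (SD, n = 7), 0.948 ± 0.434 CPM in saline (n = 7), 9.72 ± 1.87 CPM in control LC (n = 2) and 1.11 ± 0.825 CPM in control RA pieces (n = 2). Without sheep 1 the PE/LPS mean was 15.1 ± 5.21 CPM (n = 6) and the saline mean 0.893 ± 0.448 CPM (n = 6). In order of level PE/LPS came first, then control LC, control RA and saline. The first pair and the last pair each overlapped in their values, and the step between control LC and control RA was the one with no overlap.

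Within exposed sheep the ratio of the PE/LPS to the saline piece was 1.17 in sheep 1, 20.03 in sheep 2, 18.4 in sheep 8, 36.4 in sheep 11, 13.1 in sheep 14, 7.31 in sheep 15 and 26.97 in sheep 16. Its direction in sheep 1 turned with the scaling: by library totals the PE/LPS piece had 1.25 CPM and the saline piece 1.35 CPM, so that HOXA7 was higher in PE/LPS in 7 of 7 sheep with TMM and in 6 of 7 with library totals. Of the 15670 genes with a mean of at least 1 CPM, 0.881% were higher in PE/LPS in 7 of 7 sheep and 8.74% in 6 or 7, shares from the contrast that chose HOXA7. Over groups, PE/LPS and saline values did not overlap for 0.0447% of the genes, with no member among them, and without sheep 1 HOXA7 was among the 0.083% with every PE/LPS piece above every saline piece. The fitted log2 fold change within sheep was 3.69 (SE 0.56, 95% interval 2.49 to 4.90), and 4.15 without sheep 1.

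The control sheep show the code split without exposure. In them HOXA7 was higher in LC than in RA pieces by a fitted 3.13 on the log2 scale (SE 0.73, 95% interval 1.46 to 4.81, 2 pieces a side). With a control sheep left out it ran from 2.47 without sheep 7 to 4.199 without sheep 9. Both LC pieces lay above both RA pieces, as they did for 16.9% of the 15670 genes (31.4% with no overlap in either direction), so that 4 pieces alone single out little. Against all 4 control pieces, which mix the codes, HOXA7 was at 1.29 in PE/LPS (SE 0.71, 95% interval -0.23 to 2.81) and at -2.52 in saline pieces (SE 0.64, 95% interval -3.87 to -1.18), both log2 fold changes. These comparisons share pieces with each other and with the contrast that chose the gene.

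With the code held constant, the exposed pieces were set against control pieces of the same code. HOXA7 was chosen on these same pieces, so its values here too are descriptions, without a test. PE/LPS pieces against control LC pieces gave a log2 fold change of 0.43 for HOXA7 (SE 0.66, 95% interval -0.98 to 1.85), and 0.66 without sheep 1. Saline pieces against control RA pieces gave -0.25 (SE 0.89, 95% interval -2.16 to 1.65), with a sign that changed to 0.13 under library totals and to 0.84 without sheep 9. In both, the exposed and the control values overlapped for all 5 members, where 2.29% of the 15670 genes had no overlap between PE/LPS and control LC pieces (1.23% with PE/LPS above) and 7.36% none between saline and control RA pieces (3.73% with saline above). The difference between PE/LPS and saline within sheep, less that between LC and RA pieces of control sheep, was 0.07 (SE 1.45, 95% interval -2.93 to 3.08, limma voom), and 0.59 without sheep 1. With 2 control pieces of each code, these intervals hold both no change and changes of several fold, so a smaller effect of exposure was not detectable.

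Across codes, no gene of the 15670 had all 9 LC pieces above or all below the 9 RA pieces, and at HOXA7 the 1 LC piece inside the RA range was that of sheep 1. With both pieces of sheep 1 left out, HOXA7 was the 1 gene (0.00638%) with every LC piece above every RA piece, and it was so with TMM and with library totals. In the other direction PTPRN, which encodes a membrane protein of neuroendocrine secretory granules, was the 1 gene with every LC piece below every RA piece, which makes 0.0128% in both directions together. Leaving out sheep 1 was decided after the HOXA7 values were seen, so the count describes these pieces and supports nothing further.

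HOXA2, which patterns the hindbrain and the second pharyngeal arch in mice, had a lowest, median and highest level of 6.12, 7.25 and 10.8 CPM in PE/LPS pieces and of 4.09, 13.1 and 16.8 CPM in saline pieces. Control LC pieces had 8.21 and 10.3 CPM and control RA pieces 10.1 and 7.11 CPM. The groups overlapped, and the PE/LPS piece was the lower one in 6 of 7 sheep with TMM and in 5 of 7 with library totals. With TMM, 8.83% of the 15670 genes were lower in 6 or 7 sheep. The log2 fold change within sheep was -0.48 (SE 0.29, 95% interval -1.11 to 0.16, edgeR adjusted p = 0.775).

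HOXA3, which is needed for the thymus and parathyroid in mice, had a lowest, median and highest level of 10.1, 14.0 and 34.1 CPM in PE/LPS pieces and of 10.5, 26.3 and 30.1 CPM in saline pieces. Control LC pieces had 16.7 and 15.1 CPM and control RA pieces 20.8 and 13.8 CPM. The PE/LPS piece was lower in 6 of 7 sheep with TMM and in 5 of 7 with library totals. Sheep 16 went the other way, with 34.1 CPM in its PE/LPS piece and 10.5 CPM in its saline piece. The log2 fold change within sheep was -0.45 (SE 0.33, 95% interval -1.17 to 0.27, edgeR adjusted p = 0.788), and -0.77 without sheep 16.

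HOXA4, a pattern gene of the neck and upper spine in mice, had a lowest, median and highest level of 8.53, 11.7 and 22.2 CPM in PE/LPS pieces and of 11.4, 16.6 and 28.4 CPM in saline pieces. Control LC pieces had 13.1 and 21.4 CPM and control RA pieces 13.5 and 15.1 CPM. The groups overlapped, the PE/LPS piece was lower in 5 of 7 sheep, and the log2 fold change within sheep was -0.25 (SE 0.25, 95% interval -0.79 to 0.30, edgeR adjusted p = 0.832).

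HOXA5, the member whose loss disturbs airway and lung formation in mice, had a lowest, median and highest level of 55.5, 94.5 and 139.6 CPM in PE/LPS pieces and of 60.7, 81.3 and 122.3 CPM in saline pieces. Control LC pieces had 76.7 and 110.9 CPM and control RA pieces 101.1 and 52.96 CPM. It was higher in PE/LPS in 4 of 7 sheep with TMM and in 3 of 7 with library totals. Its log2 fold change within sheep was 0.14 (SE 0.23, 95% interval -0.37 to 0.65, edgeR adjusted p = 0.899).

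**Figure D2:**
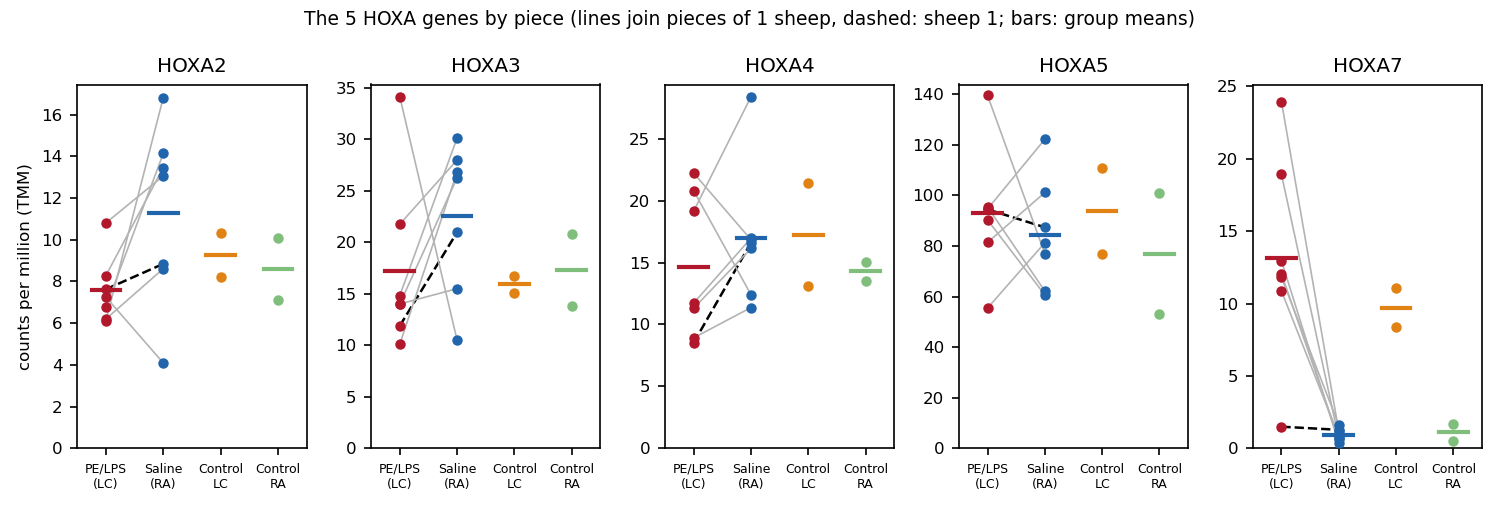
Level of each of the 5 HOXA genes in CPM (vertical axes, each starting at 0) in PE/LPS, saline, control LC and control RA pieces (horizontal axes); points are pieces, bars group means, and lines join the 2 pieces of a sheep, dashed for sheep 1. The groups overlap for HOXA2, HOXA3, HOXA4 and HOXA5, whereas for HOXA7 all PE/LPS points but that of sheep 1, at 1.49 CPM, stand above the highest saline point of 1.62 CPM.

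None of these 4 genes passed the threshold in any comparison. Within sheep, the quasi-likelihood test of edgeR, with Benjamini-Hochberg adjusted p under 0.05, called 0 of 16944 genes (0.0%), with 976 at an unadjusted p under 0.05, while DESeq2 called 47 (0.277%) and limma voom 0. Against control, edgeR called 0 of 18340 genes for PE/LPS (0.0%, 234 at an unadjusted p under 0.05, DESeq2 0 and voom 0) and 0 of 18289 for saline (0.0%, 898 unadjusted, DESeq2 6 or 0.0328%, and voom 0). Between LC and RA in control sheep it called 0 of 18063 (0.0%, 670 unadjusted, DESeq2 51 or 0.282%, and voom 1 or 0.00554%). Against control pieces of the same code it called 0 of 19698 for PE/LPS (0.0%, 308 unadjusted, DESeq2 1 or 0.00508%, and voom 0) and 0 of 19132 for saline (0.0%, 1737 unadjusted, DESeq2 39 or 0.204%, and voom 0). The difference of differences had 0 of 20719 genes past the threshold by limma voom (0.0%, 1268 unadjusted) and 0 by edgeR.

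By code in the control sheep, the log2 fold changes of LC over RA were 0.10 for HOXA2 (SE 0.46), -0.13 for HOXA3 (SE 0.41), 0.26 for HOXA4 (SE 0.43) and 0.28 for HOXA5 (SE 0.46), with edgeR adjusted p from 0.992 to 1.0. Against all control pieces, the 4 genes ran from -0.23 (HOXA2) to 0.13 (HOXA5) in PE/LPS and from -0.02 (HOXA5) to 0.43 (HOXA3) in saline pieces. Several of these small values changed sign when a sheep was left out, and no direction is read from them.

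**Figure D3:**
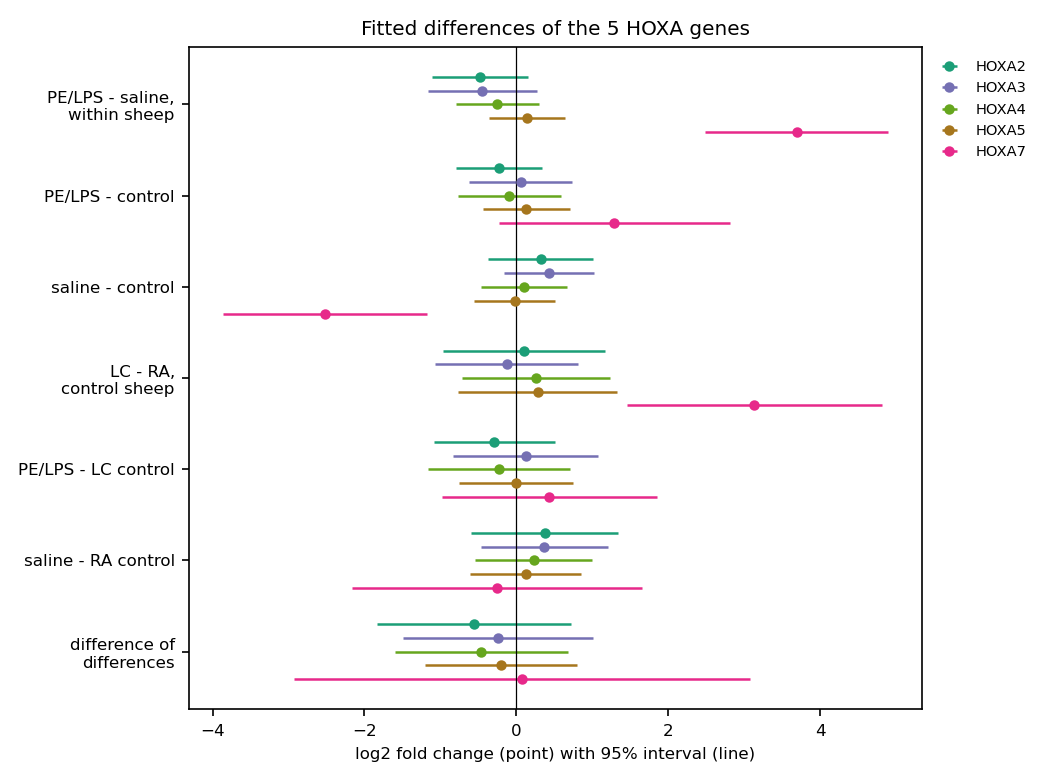
Fitted log2 fold changes (points, horizontal axis) with 95% intervals (lines) of the 5 HOXA genes in 7 comparisons (rows), the last being PE/LPS minus saline less LC minus RA in control sheep. HOXA7 stands at 3.69 within sheep and 3.13 between codes in control sheep. With the code held constant it stands at 0.43 and -0.25, with wide intervals from 2 control pieces of each code. HOXA7 was chosen on these same pieces, so its values are descriptions, without a test. The other 4 genes have intervals that include 0 in every row.

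The members differed in how they moved over the 18 pieces. HOXA2, HOXA3 and HOXA5 had Pearson correlations of 0.48 to 0.50 with each other in log2 CPM, and HOXA4 of 0.20 to 0.42 with these 3. HOXA7 had -0.28 with HOXA2, -0.22 with HOXA3, -0.08 with HOXA4 and 0.15 with HOXA5. These are descriptions over pieces that share sheep, depth and scaling, and HOXA7 falls into a high and a low set. In the RefSeq annotation of the ARS-UI_Ramb_v3.0 assembly, HOXA3 overlaps HOXA4, HOXA5 and HOXA6, and HOXA5 overlaps HOXA4, while HOXA2 overlaps the long non-coding RNA LOC105606593. How reads of overlapping genes were assigned, and whether strand was used, is not stated in the notes used here, so the counts of HOXA2 to HOXA5 are uncertain to that extent. HOXA7 overlaps no annotated gene.

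HOXA7 was the last HOX gene towards the 5′ end of the cluster with a mean of at least 1 CPM over all 18 pieces. It reached this level through the LC pieces, with a mean of 12.4 CPM, whereas the RA pieces had a mean of 0.984 CPM. Beyond it, HOXA9 had 80 counts in all 18 pieces together, HOXA10 2, HOXA11 23 and HOXA13 2, and 20 of the 23 HOXA11 counts came from the PE/LPS piece of sheep 11. The 5′ end was not without counts, as the long non-coding RNA LOC105606592, which overlaps HOXA13, had 882 counts and was detected in all 18 pieces. Its log2 fold change was 0.24 within sheep (SE 0.46) and 0.11 between codes in control sheep (SE 0.81). HOXA6, the neighbour of HOXA7 on the 3′ side, was at 0 counts everywhere. That allows a level of up to 0.00617 CPM over the pooled pieces by counting error alone. HOXA6 lies within the stretch that HOXA3 overlaps.

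**Figure D4:**
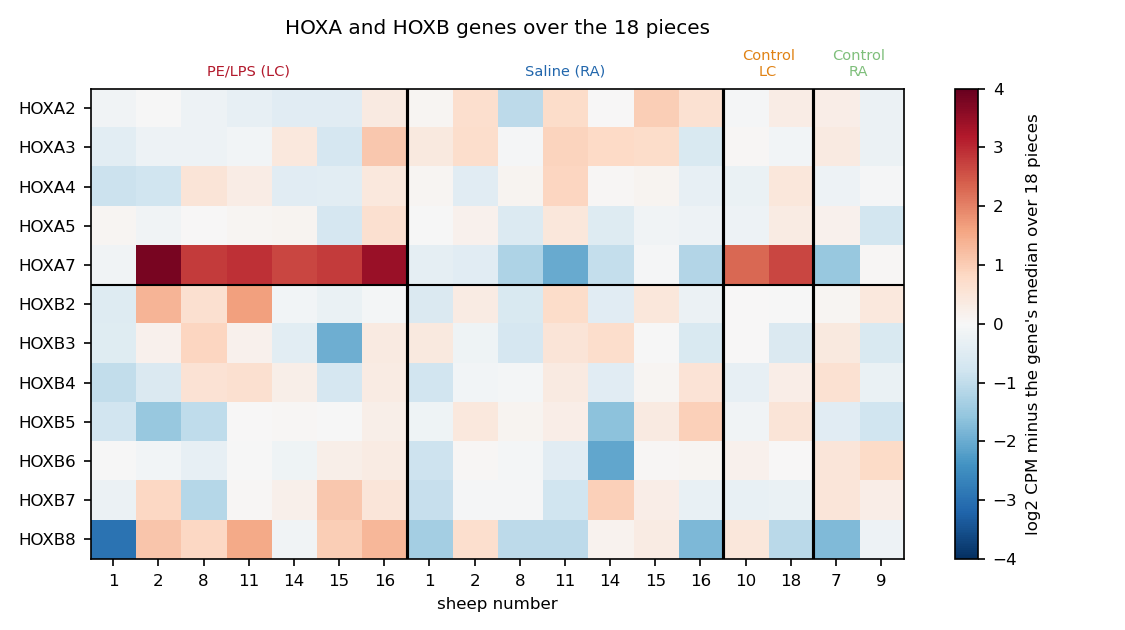
The 5 HOXA members and the 7 HOXB genes with a mean of at least 1 CPM (rows) in the 18 pieces (columns, by sheep number, with PE/LPS at the left, then saline, control LC and control RA), coloured by log2 CPM minus the gene's median over pieces. The HOXA7 row is red in the LC pieces except sheep 1 and pale or blue in the RA pieces. HOXB8 has its lowest value, 0.107 CPM from 2 counts, in the PE/LPS piece of sheep 1.

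Of the 10 HOXB genes, 8 passed the filter on low counts within sheep. There 6 had a positive and 2 a negative log2 fold change, with a median of 0.39 against -0.03 over all genes tested, and 0 past the threshold. In control sheep 7 were tested, with 2 positive and 5 negative for LC over RA (median -0.25, against 0.02), and 0 past the threshold. Of the 7 HOXB genes with a mean of at least 1 CPM, HOXB8 followed HOXA7 most closely, with a Pearson correlation of 0.66 over the 18 pieces. HOXB8 had 0.107 CPM (2 counts) in the PE/LPS piece of sheep 1 and 1.17 to 3.91 CPM in the other 6 PE/LPS pieces. It had 0.328 (7 counts) to 2.14 CPM in saline pieces, 1.80 and 0.578 CPM in control LC and 0.330 and 1.13 CPM in control RA pieces. The lowest of these levels rest on few counts. HOXB8 was singled out by a correlation over pieces that include that of sheep 1, so its value there is in part fixed by this choice. Its groups overlapped, and its log2 fold change was 1.07 within sheep (SE 0.70, edgeR adjusted p = 0.775) and 0.70 between codes in control sheep (SE 1.29, edgeR adjusted p = 0.992). HOXB7, the paralogue of HOXA7, had 9.86 ± 4.45 CPM in PE/LPS pieces, against 7.81 ± 3.75 CPM in saline ones (log2 fold change 0.34, SE 0.33), and in control sheep 6.43 ± 0.118 CPM in LC and 10.3 ± 1.13 CPM in RA pieces (-0.68, SE 0.46), neither past the edgeR threshold.

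The other HOXB genes had log2 fold changes within sheep of 0.45 (HOXB2), -0.20 (HOXB3), 0.01 (HOXB4), -0.50 (HOXB5), 0.45 (HOXB6) and 0.52 (HOXB9), with SE from 0.25 to 1.48 and edgeR adjusted p from 0.777 to 0.996. All 9 HOXC genes failed the filter within sheep. Of 9 HOXD genes, HOXD8 had -1.54 there (SE 0.91, edgeR adjusted p = 0.773) and HOXD9 -0.02 (SE 0.67, edgeR adjusted p = 0.996). Both had means under 1 CPM over the 18 pieces. Between codes in control sheep 1 HOXC gene, HOXC6, was tested. It had 0.0231 ± 0.0327 CPM in LC and 0.798 ± 0.149 CPM in RA pieces (-4.81, SE 2.00, edgeR adjusted p = 0.987). These levels rest on few counts, as HOXC6 had 99 in all 18 pieces together.

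Among genes beside the HOXA cluster, 9 of 9 were tested, and 7 had a positive log2 fold change within sheep with a median of 0.14, against -0.03 over all genes tested, whereas in control sheep 1 of 9 was positive for LC over RA with a median of -0.28, against 0.02. SNX10, a sorting protein of endosomes, had the largest difference of this list in both: 102.7 ± 48.99 CPM in PE/LPS pieces, against 58.9 ± 24.7 CPM in saline ones (0.79, SE 0.28, edgeR adjusted p = 0.771), and 65.8 ± 18.5 CPM in control LC and 135.1 ± 63.1 CPM in control RA pieces (-1.06, SE 0.49, edgeR adjusted p = 0.987). None of these genes passed the threshold.

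HOX proteins bind DNA together with PBX, MEIS and PKNOX proteins of the TALE class. Of these 9 cofactor genes, 8 had a negative log2 fold change within sheep (median -0.28, against -0.03 over all genes tested) and 8 a positive one for LC over RA in control sheep (median 0.45, against 0.02). PKNOX2, one of them, had 2.36 ± 2.06 CPM in PE/LPS pieces, against 3.03 ± 0.981 CPM in saline ones (-0.91, SE 0.61, edgeR adjusted p = 0.775). No cofactor passed the threshold in either comparison.

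Retinoic acid and CDX factors switch on HOX genes in embryos. Of the 14 genes of this list tested within sheep, 7 were positive and 7 negative, with a median of 0.00, and in control sheep 11 of 14 were positive for LC over RA with a median of 0.35. CRABP2, a carrier of retinoic acid in cells, had 0.962 ± 0.829 CPM in PE/LPS pieces, against 1.501 ± 1.05 CPM in saline ones (-0.86, SE 0.65, edgeR adjusted p = 0.793). Of the 3 genes of the list with the largest difference between codes in control sheep, RXRG and RARG, receptors of retinoids, had 2.51 ± 0.1099 and 9.27 ± 2.26 CPM in LC pieces, against 1.28 ± 1.496 and 5.31 ± 1.92 CPM in RA pieces (0.95, SE 1.10, and 0.80, SE 0.53, edgeR adjusted p = 0.987 for both). ALDH1A3, which makes retinoic acid, went the other way, with 26.6 ± 5.73 CPM in control LC and 50.3 ± 17.9 CPM in control RA pieces (-0.92, SE 0.42, edgeR adjusted p = 0.987).

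Polycomb proteins keep HOX genes silent and Trithorax proteins keep them active. Of 26 such regulators tested within sheep, 8 were positive and 18 negative (median -0.16, against -0.03 over all genes tested), and 0 passed the threshold. In control sheep 17 were positive and 9 negative for LC over RA (median 0.09, against 0.02), and 0 passed the threshold. JARID2, a partner of the Polycomb complex that methylates histones, had 34.7 ± 20.8 CPM in PE/LPS pieces, against 46.5 ± 10.3 CPM in saline ones (-0.57, SE 0.28, edgeR adjusted p = 0.771). KDM6A, an enzyme that removes the Polycomb mark, had 48.8 ± 25.6 CPM in PE/LPS pieces, against 30.8 ± 12.3 CPM in saline ones (0.56, SE 0.32, edgeR adjusted p = 0.771).

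Of 33 regulators of lung patterning tested, 14 were positive and 19 negative within sheep (median -0.15), and 24 were positive and 9 negative for LC over RA in control sheep (median 0.12). WNT2, a ligand that specifies lung in the mouse foregut, had 11.0 ± 2.86 CPM in control LC and 1.79 ± 0.541 CPM in control RA pieces (2.59, SE 0.57, edgeR adjusted p = 0.987). The 7 PE/LPS pieces, all coded LC, had 3.73 ± 1.89 CPM of WNT2, so the control LC level was not shared by the LC pieces of exposed sheep. TBX4, a transcription factor of lung mesenchyme, had 73.6 ± 39.5 CPM in PE/LPS pieces, against 101.2 ± 31.3 CPM in saline ones (-0.56, SE 0.28, edgeR adjusted p = 0.771). Neither passed the threshold.

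Genes whose log2 CPM ran most like that of HOXA7 over the 18 pieces were BICRA, a chromatin remodelling subunit (Pearson r = 0.72), PANX1, a membrane channel (0.71), SIPA1L2 (0.69), DNAJB1, a heat shock co-chaperone (0.69), and VSIG10 (0.69), among genes with a mean of at least 1 CPM. BICRA had 5.97 to 25.3 CPM in LC and 4.55 to 8.87 CPM in RA pieces, with overlap, and its LC piece of sheep 1, at 5.97 CPM, was the lowest LC value. DNAJB1 had 46.02 to 199.2 CPM in LC and 33.7 to 113.0 CPM in RA pieces, and again sheep 1 had the lowest LC value. With Spearman's rank correlation 2 of these 5 genes, BICRA and PANX1, stayed among the 5 highest.

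Genes that ran most against HOXA7 were PTPRN (r = -0.87), CCDC80, an extracellular matrix protein (-0.84), and CFB, complement factor B (-0.77). PTPRN was at 0.127 to 0.600 CPM in the 8 LC pieces other than sheep 1 and at 1.12 to 4.66 CPM in the 8 RA pieces other than sheep 1. These levels rest on few counts, from 1 (sheep 2) to 19 (sheep 10) in those LC pieces and from 24 (sheep 16) to 92 (sheep 8) in those RA pieces. In sheep 1 PTPRN had 1.28 CPM (24 counts) in the LC piece and 0.571 CPM (21 counts) in the RA piece, each inside the range of the opposite code. CCDC80 had 104.5 to 260.0 CPM in the 8 other LC pieces and 358.8 CPM in the LC piece of sheep 1, against 226.6 to 531.0 CPM in RA pieces. CFB had 100.5 to 182.8 CPM in the 8 other LC pieces and 248.3 CPM in the LC piece of sheep 1, against 160.7 to 281.4 CPM in RA pieces. At all 3 genes the LC piece of sheep 1 lay above the other LC pieces and within the range of RA pieces. The genes most like and most unlike HOXA7 were picked by correlation over pieces that include this one, so their values in it are in part fixed by that choice and support nothing further.

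**Figure D5:**
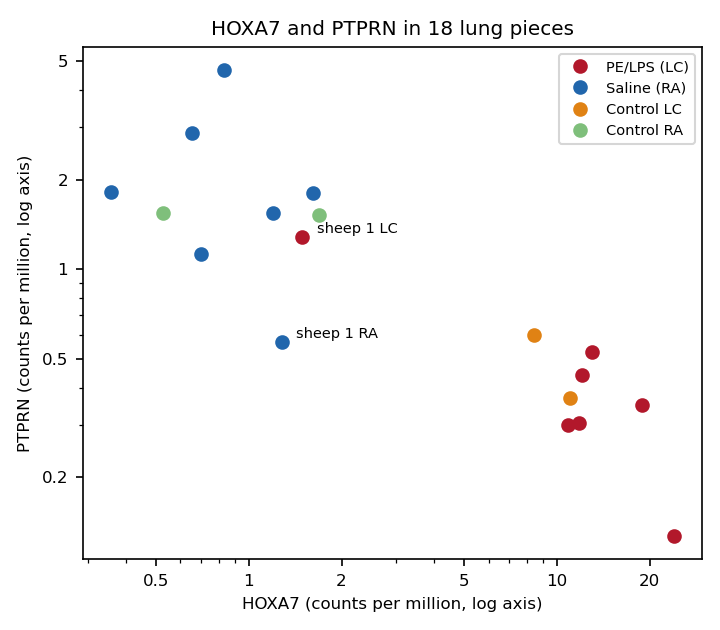
PTPRN (vertical axis) against HOXA7 (horizontal axis), both in CPM on log axes, in the 18 pieces coloured by group and code. The 8 LC pieces other than sheep 1 lie at the lower right, below 0.600 CPM of PTPRN or at it, and the RA pieces at the left; the LC piece of sheep 1 lies among the RA pieces at 1.49 CPM of HOXA7 and 1.28 CPM of PTPRN.

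For the other members the 3 closest genes were SDK1, AFAP1 and LOC121817108 for HOXA2 (r = 0.74, 0.72 and 0.70), ADGRA2, SKI and TMEM131L for HOXA3 (0.86, 0.85 and 0.84), ANKS1A, LOC121818791 and RUNDC1 for HOXA4 (0.88, 0.84 and 0.84) and PELI2, DYNLL2 and MBD2 for HOXA5 (0.81, 0.79 and 0.79). No gene was named for more than 1 member.

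Markers of several cell types leaned to one side between the exposed pieces, beside the HOXA7 difference. All 8 alveolar type 2 cell markers had a negative log2 fold change within sheep (median -0.67). Their summed level ran from 4729 to 128349 CPM over PE/LPS pieces, against 22483 to 102974 CPM over saline ones, with sheep 1 the highest PE/LPS piece. Against control pieces of the same code, 7 of the 8 were positive for PE/LPS (median 0.19) and all 8 for saline pieces (median 0.66). Within sheep, 7 of 9 fibroblast markers were negative (median -0.51, with 1517 to 2831 CPM over PE/LPS pieces, against 1703 to 5719 CPM over saline ones). Of 8 endothelial markers 7 were positive (median 0.35; 1156 to 1513 CPM over PE/LPS pieces, against 658 to 1476 CPM over saline ones). Ciliated cell markers were negative in 6 of 7 (median -0.68; 75.4 to 270.3 CPM over PE/LPS pieces, against 194.7 to 338.1 CPM over saline ones), and both mesothelial markers tested were negative (median -1.35; 44.6 to 252.6 CPM over PE/LPS pieces, against 175.5 to 364.5 CPM over saline ones for the 6 listed). Neutrophil markers were positive in 4 of 5 (median 0.56; 271 to 676 CPM over PE/LPS pieces, against 149 to 473 CPM over saline ones) and macrophage markers in 5 of 6 (median 0.27; 1952 to 7432 CPM over PE/LPS pieces, against 992 to 5554 CPM over saline ones). HBB, the 1 haemoglobin gene tested, had 18.8 ± 18.5 CPM in PE/LPS pieces, against 5.28 ± 5.88 CPM in saline ones (1.88, SE 0.41, edgeR adjusted p = 0.771). The remaining lists were alveolar type 1 (5 of 7 positive, median 0.28), smooth muscle and pericyte (3 of 7, -0.17), club and goblet (2 of 5, -0.51) and lymphocyte markers (2 of 7, -0.34). None of these markers passed the threshold, none was at 0 in all pieces of these groups, and their part in the HOXA7 difference was not tested. In control sheep all 7 ciliated (median 0.97) and all 5 club and goblet cell markers (median 0.70) were positive for LC over RA. So were both mesothelial markers tested (median 1.18), and each of these medians was opposite to that within exposed sheep. HBB went the same way as within exposed sheep, with 23.6 ± 30.3 CPM in control LC and 4.86 ± 4.31 CPM in control RA pieces (2.29, SE 1.25). Alveolar type 2 markers were positive in 3 of 8 (median -0.20), fibroblast in 5 of 9 (0.05) and endothelial in 4 of 8 (-0.01). Neutrophil markers were positive in 3 of 5 (0.26) and macrophage markers in 2 of 6 (-0.14). None of these markers passed the threshold. Over all pieces the ciliated markers summed to 75.4 to 368.5 CPM in LC and 110.6 to 338.1 CPM in RA pieces, and the club and goblet markers to 675 to 10297 CPM in LC and 784 to 12715 CPM in RA pieces, and their part in the code difference of HOXA7 was not tested either. Over the 18 pieces the summed levels had correlations with HOXA7 from -0.51 for mesothelial markers to 0.46 for endothelial markers.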

How the data were processed

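The authors deposited 1 table of raw counts per gene, whole numbers with a column for each of 54 libraries. Per the submitters' processing notes, the tools were STAR 2.7.10b, Trimmomatic 0.39, edgeR 3.40.2, Subread 1.6.3, FastQC 0.11.9 and featureCounts, with no roles stated. Per the labels' protocols, libraries were primed at poly-A tails and tagmented. Genome build and strand setting: not given in the sources used here. All columns had a sample. Counts of 30184 genes were used, and 2 entries without values are not reported here. Gene IDs matched a RefSeq symbol in 84.3% of cases.

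The 3 libraries of a piece were summed. CPM use TMM over 18 pieces, and log2 CPM a prior count of 2. The edgeR 4.0.16 quasi-likelihood test (R 4.3.3, robust, filterByExpr with counts of 10 and 15, Benjamini-Hochberg at 0.05) was run over all genes, with the sheep as a block within sheep. The pairing comes from the design text. Same-numbered pieces correlated at -0.25 to 0.34 in their deviations, above 0.1 in 4 of 7 pairs. The mean was 0.07, against -0.01 for pieces with different numbers, and the same-numbered piece was the best match in 3 of 7 cases. These values are too weak to check the pairing. The difference of differences used limma 3.58.1 voom with a random sheep effect, whose correlation (-0.024) was held when sheep were left out. DESeq2 1.42.0, voom, other scalings, filters and single libraries were alternatives. Fits were tested on simulated data.

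The members, the gene lists and the tests were chosen with earlier results of these data known. Named are the members, other HOX genes that passed the filter, up to 3 genes per list by size of difference, and the genes most and least like HOXA7 by Pearson correlation. Intervals are from the fits, and the limit for HOXA6 takes 3 counts and covers counting error alone. Some genes under this rule are not reported here.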

Additional observations from a re-analysis of the deposited data

Results flagged for a closer look

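HOXA7 in the PE/LPS pieces had 1 piece far from the others, the LC piece of sheep 1. Its log2 CPM lay below the next lowest piece by 0.712 of the whole range of the 7 pieces, past the value of 0.568 at which a gap was flagged for 7 samples. It was the 1 such case among 15 combinations of gene and group checked. HOXA7 was chosen on these same values and the control group checked mixes the codes. No chance rate therefore applies, and the gap is a description. All 3 libraries of this piece were low, at 0.880 to 1.56 CPM. Whether the piece's code and treatment are recorded correctly was not tested.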

How the results depend on the processing

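Within sheep, HOXA7 stayed between 2.94 and 4.39 under 19 alternatives, at 3.44 to 4.15 with a sheep left out, and was 3.79 without the replicate block. The count of genes called within sheep was 1 with no replicate block, 1 with no low count filter, 47 with DESeq2, and 0 to 1 with a sheep left out (1 without sheep 1). DESeq2 called 6 genes for saline against control, 51 for LC against RA in control sheep, 1 for PE/LPS against control LC and 39 for saline against control RA pieces. For LC against RA, voom called 1 gene, no low count filter 94, and leaving out a sheep 2 (sheep 9) to 33 (sheep 18), where a lone piece is assumed to vary like the others. For saline against control RA, leaving out a sheep gave 0 to 9 (sheep 7).

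HOXA7 between codes in control sheep was 2.47 to 4.199 with a sheep left out. For saline against control RA it changed sign to 0.057 with voom and 0.13 with library totals, and ran from -0.87 to 0.84 with a sheep left out. The difference of differences ran from -0.63 to 1.04 with a sheep left out, and was 0.62 in edgeR with no block. Against all controls HOXA7 in PE/LPS was 0.68 to 1.89 and in saline -2.90 to -1.94.

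For HOXA2 to HOXA5, 396 of 428 values kept their sign, 32 did not, and none gained a call (lowest adjusted p = 0.224). Under library totals HOXA4 was 0.014 for PE/LPS against control, HOXA5 0.10 for saline against control and HOXA3 0.083 for LC against RA. Without the 4 pieces with longer titles HOXA5 was -0.013 for PE/LPS against control. Against control LC, HOXA5 in PE/LPS was 0.021 with DESeq2 and 0.021 with RLE size factors. With a sheep left out, PE/LPS against control gave -0.18 to 0.18 for HOXA3, -0.23 to 0.080 for HOXA4 and -0.043 to 0.28 for HOXA5. Saline against control gave -0.092 to 0.27 for HOXA4 and -0.18 to 0.12 for HOXA5. LC against RA gave -0.11 to 0.33 for HOXA2, -0.38 to 0.16 for HOXA3, -0.12 to 0.57 for HOXA4 and -0.10 to 0.77 for HOXA5. PE/LPS against control LC gave -0.11 to 0.21 for HOXA3, -0.54 to 0.17 for HOXA4 and -0.25 to 0.28 for HOXA5. Saline against control RA gave -0.26 to 0.64 for HOXA5, and the difference of differences -0.61 to 0.037 for HOXA3 and -0.66 to 0.28 for HOXA5. The causes were not tested. Low counts of HOXA7 in RA pieces, 9 to 59 per piece, and 2 control pieces of each code limit the precision.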
